A study of Mus musculus with 24 samples.

Results

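Glucose uptake and glycolysis in mouse liver were followed through 8 genes, Slc2a2, Slc2a1, Gckr, Pfkl, Pfkfb1, Pfkfb3, Pklr and Pkm, taken by gene name from the 43629 gene identifiers of the deposited tables. All 8 passed the filter on low values, a mean of at least 1 TPM (transcript abundance corrected for length and depth) over the 24 libraries, which left 12261 genes for the tests. The mRNA was from livers of old (some 19 months) and young (some 4 months) mice of the inbred strain C57BL/6, all wild type. Each age had 12 libraries, 2 for each of 6 zeitgeber times (ZT, counted in hours from lights on) that ran from ZT2 to ZT22 in steps of 4 h, with sampling spread over 2 days. Neither the sex of the mice nor the source of the 2 libraries of a group is given in the labels, so the p-values measure the spread between libraries, which may be technical.

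Liver takes up glucose through a high-capacity facilitative transporter and phosphorylates it with a hexokinase that a regulatory protein holds inactive in the nucleus during fasting. Flow through glycolysis is then set at phosphofructokinase, which fructose 2,6-bisphosphate activates, and at pyruvate kinase. Hepatocytes use forms of these proteins that differ from those of most other cells: Slc2a2 in place of Slc2a1, Pfkfb1 beside Pfkfb3, and Pklr in place of Pkm. The liver forms are known for their ties to feeding, which in mice falls mostly in the dark part of the day, after ZT12.

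Libraries held between 0.435 and 0.683 gigabases of mapped reads (median 0.523), as estimated from the files, in reads of 50 bases. All 7 hepatocyte markers were present, with a summed level of 78156 to 106771 scaled TPM in old and 72298 to 104809 scaled TPM in young liver. Scaled TPM, the unit of all levels here, are TPM divided by a factor for each library. Old ZT14 replicate 1 stood apart by a mitochondrial share of 3.42% of TPM, beside 8.74% in the other old ZT14 library. The old libraries of other times had 10.7% to 15.4% and the young libraries 11.5% to 17.1%. Old ZT6 replicate 2 carried skeletal muscle transcripts (6 markers summing to 317 scaled TPM, with a median of 3.17 over old libraries), and young ZT18 replicate 2 carried pancreatic acinar ones (6 markers summing to 3037 scaled TPM, with a median of 0.0 over young libraries).

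Start regions were searched first for known motifs. RefSeq (GRCm38.p6) gave 14 start sites for the 8 genes, and the 250 bases before each were searched on both strands for 3 motifs. These were the E-box CACGTG, which clock proteins can bind, the D-box TTANGTAA, and a strict form of the carbohydrate response element, through which glucose acts on lipogenic genes. The last was spelled as CACGNG and CNCGTG with 5 bases of any kind between them. A match of it can contain an E-box, but the one found did not. The stretches below end where an annotated exon begins, and capitals mark the motif.
Pklr, chr3:89136373-89136571, plus strand: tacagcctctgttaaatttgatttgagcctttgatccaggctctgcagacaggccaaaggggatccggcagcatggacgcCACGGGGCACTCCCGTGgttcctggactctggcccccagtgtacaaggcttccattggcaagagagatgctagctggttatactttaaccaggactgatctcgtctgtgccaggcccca
Pfkfb3, chr2:11502102-11502340, minus strand: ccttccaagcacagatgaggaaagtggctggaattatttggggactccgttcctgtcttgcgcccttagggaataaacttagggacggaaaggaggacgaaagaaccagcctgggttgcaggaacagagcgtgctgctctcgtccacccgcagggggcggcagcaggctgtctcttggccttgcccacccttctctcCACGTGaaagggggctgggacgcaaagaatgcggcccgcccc
The carbohydrate response element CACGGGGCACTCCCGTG of Pklr lay 154 to 170 bases before a start site 481 bases inside the gene as the files place it. Of all 32851 RefSeq windows of that length, 13 (0.0396%) held this motif. The E-box of Pfkfb3 lay 48 to 53 bases before a start site 51987 bases inside that gene. An E-box stood in 1978 of all windows (6.02%). No window of the 8 genes held the D-box, which was found in 677 windows (2.06%). A match describes the letters and does not show that a factor binds there.

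Levels in scaled TPM are per transcript length and so can be set side by side between genes. In old liver the order of the mean levels was Pklr, Slc2a2, Gckr, Pfkfb1, Pfkl, Pkm, Pfkfb3 and Slc2a1. In young liver it was Slc2a2, Pklr, Gckr, Pfkfb1, Pfkl, Pkm, Slc2a1 and Pfkfb3. Some neighbours in these orders were not separated. Pklr was above Slc2a2 in 6 of 12 old libraries and below it in 6 of 12 young ones, and Pfkl was above Pkm in 6 of 12 old and 8 of 12 young libraries. The lowest pair, Pfkfb3 and Slc2a1, also crossed, with Pfkfb3 higher in 4 of 12 old libraries and Slc2a1 higher in 7 of 12 young libraries. In bulk liver, fewer cells of a type and less RNA per cell cannot be told apart.

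**Figure D1:**
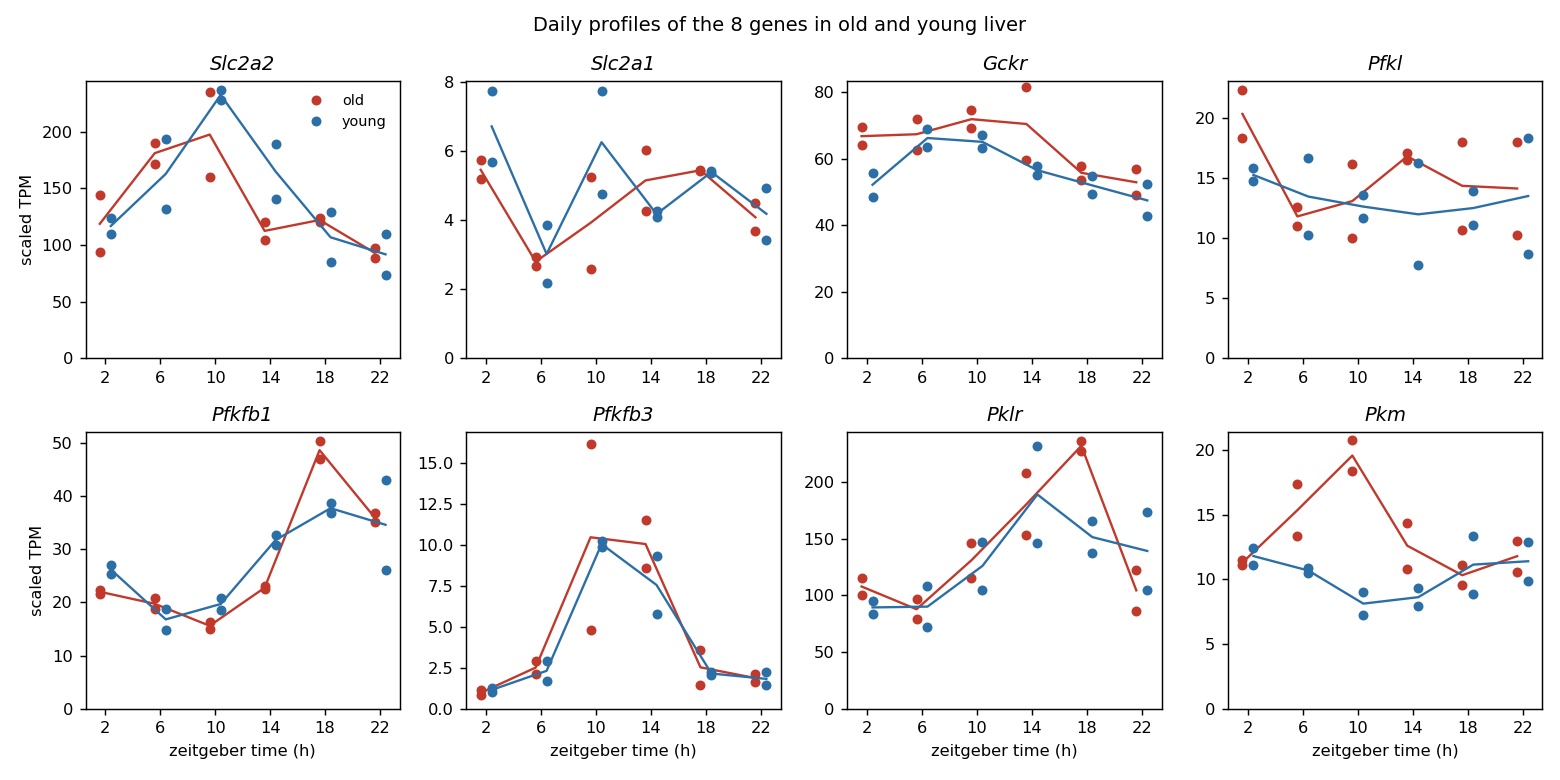
Levels of the 8 genes in scaled TPM (vertical axes, each from 0) against zeitgeber time in hours, with old in red and young in blue. Points are single libraries and lines join the means of 2 libraries. Pfkfb3 was highest at ZT10 in both ages, and Pkm at ZT10 lay at 18.4 and 20.7 in old against 9.02 and 7.22 in young liver.

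Most calls in these genes were for time of day. Of the 8, 4 (Slc2a2, Pfkfb1, Pfkfb3 and Pklr) varied over the 6 times on the mean of both ages (limma, Benjamini-Hochberg adjusted p under 0.05 over all genes tested), and 15.3% of all genes did. A 24 h rhythm, a cosine and sine fitted per age, was called in 5 genes in old liver, beside 8.96% of all genes, and in 5 in young liver, beside 10.7% of all genes. Slc2a2, Pfkfb1, Pfkfb3 and Pklr were called in both ages, as were 5.46% of all genes. Pkm was called in old liver and Gckr in young liver, and the test of the difference between the rhythms passed for neither (adjusted p = 0.573 and 1.0). The old count was 3 without old ZT10 replicate 2, old ZT22 replicate 1 or old ZT6 replicate 2, and the young count was 3 without young ZT14 replicate 2 or young ZT6 replicate 1 and with unscaled TPM. Fitted peaks ran through the day from Slc2a2 (8.53 h in old and 9.78 h in young) over Pfkfb3 (12.3 h in old and 11.97 h in young) and Pklr (16.0 h in both) to Pfkfb1 (19.8 h in old and 18.9 h in young). The median amplitude of the 8 genes, the log2 difference between fitted peak and trough, was 0.84 in old and 0.78 in young liver. Over all genes tested it was 0.39 in old and 0.44 in young liver.

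**Figure D2:**
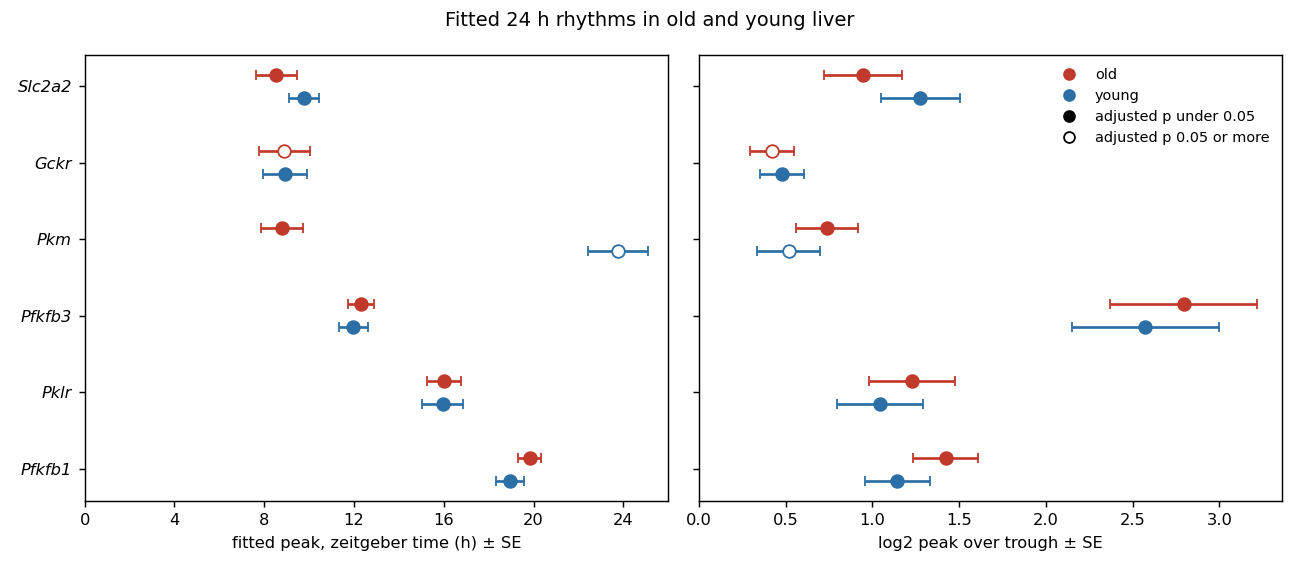
Fitted peak in zeitgeber hours (left) and log2 peak over trough (right), each ± SE, for the 6 genes with a rhythm called in at least 1 age, with old in red above young in blue. Filled points passed an adjusted p of 0.05 and open ones did not. The 4 genes filled in both ages peaked in the same sequence in old and young liver, and Pkm peaked at 8.77 h in old and 23.8 h in young.

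Among the transporters, Slc2a2 (GLUT2, chr3:28697903-28728363, plus strand, GRCm38), the main route of glucose into and out of hepatocytes, was highest late in the light part of the day. In old liver it had 93.6 and 143.8 scaled TPM at ZT2, 172.0 and 190.4 at ZT6, 160.0 and 235.3 at ZT10, 104.5 and 120.5 at ZT14, 123.9 and 120.3 at ZT18, and 97.6 and 88.7 at ZT22. Young liver had 109.4 and 124.2 at ZT2, 131.9 and 193.8 at ZT6, 236.8 and 228.6 at ZT10, 140.5 and 189.5 at ZT14, 84.7 and 129.0 at ZT18, and 73.5 and 110.1 at ZT22. Both ages were highest at ZT10 and lowest at ZT22. The amplitude was 0.95 ± 0.22 (SE) in old (adjusted p = 0.0244) and 1.28 ± 0.22 in young liver (adjusted p = 0.00216). The old call was lost without old ZT10 replicate 2 (adjusted p = 0.101), and without old ZT22 replicate 1, old ZT22 replicate 2, old ZT6 replicate 1 or old ZT6 replicate 2 (0.0515 to 0.0678).

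Slc2a1 (GLUT1, chr4:119108711-119137330, plus strand), the transporter of the blood-brain barrier and most dividing cells, was scarce. Its lowest, median and highest values were 2.59, 4.84 and 6.03 scaled TPM in old and 2.19, 4.85 and 7.76 scaled TPM in young libraries. Both ages were lowest at ZT6, where old libraries had 2.67 and 2.92 and young libraries 3.85 and 2.19. The variation over times missed the threshold (adjusted p = 0.0537), and it passed without any one of old ZT10 replicate 1, old ZT10 replicate 2, young ZT10 replicate 2, young ZT22 replicate 2 or young ZT6 replicate 1 (0.0203 to 0.0474), and with quantile normalization (0.0401). The variation also passed with a replicate block, a term for the replicate number in the fit (limma adjusted p = 0.0391). No 24 h rhythm was called, with adjusted p of 0.527 in old and 0.943 in young.

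Gckr (chr5:31297581-31327300, plus strand) encodes the regulatory protein that binds and inhibits the hexokinase of hepatocytes. In old liver it had 64.1 and 69.4 scaled TPM at ZT2, 72.0 and 62.6 at ZT6, 74.5 and 69.2 at ZT10, 81.4 and 59.4 at ZT14, 57.8 and 53.7 at ZT18, and 49.0 and 56.7 at ZT22. In young liver it had 55.8 and 48.5 at ZT2, 69.0 and 63.3 at ZT6, 67.0 and 63.0 at ZT10, 55.1 and 57.9 at ZT14, 49.2 and 54.6 at ZT18, and 42.6 and 52.2 at ZT22. The old mean was above the young one at 6 of 6 times, and the libraries did not overlap at ZT2, ZT10 and ZT14. None of these times was called for age. With 2 libraries per age such separation is easily reached, as in other genes of the group. Its share over all genes was not counted. Amplitudes were shallow, at 0.42 ± 0.13 (SE) in old (adjusted p = 0.0899) and 0.48 ± 0.13 in young (adjusted p = 0.0404), with peaks at 8.90 h in old and 8.93 h in young. The young call was lost in 11 of the 24 fits that left out 1 library (highest adjusted p = 0.135), those without old ZT2, ZT6 or ZT18 replicate 1, young ZT2, ZT18 or ZT22 replicate 1, young ZT14 replicate 2, or either replicate of young ZT6 or young ZT10. Without young ZT18 replicate 2 and old ZT14 replicate 1 together the old rhythm passed (adjusted p = 0.0445). The variation of Gckr over times on the mean of both ages missed the threshold (adjusted p = 0.0552). With a replicate block it passed (limma adjusted p = 0.0334). It passed with FPKM (0.0372), with a filter at 5 TPM (0.0493), without old ZT14 replicate 1 (0.0344), old ZT14 replicate 2 (0.0196) or young ZT22 replicate 2 (0.0418), and without old ZT14 replicate 1 and young ZT18 replicate 2 together (0.0346).

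Pfkl (chr10:77986947-78010083, minus strand), the liver subunit of phosphofructokinase, which commits sugar to glycolysis, showed no called change. Its lowest, median and highest values were 10.04, 16.3 and 22.4 scaled TPM in old and 7.73, 13.8 and 18.4 scaled TPM in young libraries. Replicates lay far apart: at ZT22 the old libraries had 10.3 and 17.99 and the young ones 8.64 and 18.4. The adjusted p was 0.760 for variation over times, 0.909 for a rhythm in old and 0.774 for a rhythm in young.

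Pfkfb1 (chrX:150588229-150643878, plus strand) encodes the liver form of the enzyme that both makes and breaks down fructose 2,6-bisphosphate. The old libraries had 21.6 and 22.4 scaled TPM at ZT2, 18.7 and 20.8 at ZT6, 15.0 and 16.2 at ZT10, 23.0 and 22.4 at ZT14, 46.9 and 50.3 at ZT18, and 36.8 and 35.1 at ZT22. The young libraries had 25.4 and 26.9 at ZT2, 14.9 and 18.7 at ZT6, 20.7 and 18.6 at ZT10, 32.6 and 30.8 at ZT14, 36.8 and 38.6 at ZT18, and 26.1 and 43.0 at ZT22. Both ages were highest at ZT18, at 3.11 times the lowest time (ZT10) in old and 2.24 times the lowest time (ZT6) in young. The amplitude was 1.42 ± 0.19 (SE) in old (adjusted p = 0.000121) and 1.14 ± 0.19 in young (adjusted p = 0.00103), called in every fit that left out 1 library.

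Pfkfb3 (chr2:11471433-11554077, minus strand), an inducible form whose kinase activity far outweighs its phosphatase activity, had the deepest rhythm of the 8 genes. In old liver it had 0.820 and 1.13 scaled TPM at ZT2, 2.12 and 2.91 at ZT6, 4.79 and 16.1 at ZT10, 11.5 and 8.60 at ZT14, 1.48 and 3.58 at ZT18, and 2.09 and 1.65 at ZT22. In young liver it had 1.26 and 1.04 at ZT2, 1.69 and 2.94 at ZT6, 10.2 and 9.86 at ZT10, 5.81 and 9.31 at ZT14, 2.07 and 2.23 at ZT18, and 1.43 and 2.21 at ZT22. The mean at ZT10 was 10.7 times that at ZT2 in old and 8.72 times in young, and the 4 libraries of ZT10 and ZT14 were above all others of their age. The amplitude was 2.79 ± 0.42 (SE) in old (adjusted p = 0.000537) and 2.57 ± 0.42 in young (adjusted p = 0.00116), with peaks at 12.3 ± 0.58 h in old and 11.97 ± 0.63 h in young. The E-box shown above lies beside one of the start sites of Pfkfb3, and a link to the Pfkfb3 rhythm was not tested. Over the 24 libraries its profile was most like those of Por, the electron donor of cytochrome P450 enzymes, Efhd2, a calcium-binding protein, and Coq10b, a coenzyme Q binding protein (Pearson r = 0.97, 0.95 and 0.93).

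Pklr (chr3:89136142-89146784, plus strand), the pyruvate kinase of hepatocytes and red cells, was the gene with the carbohydrate response element shown above. Old libraries held 100.5 and 115.1 scaled TPM at ZT2, 96.7 and 78.8 at ZT6, 115.5 and 146.4 at ZT10, 207.6 and 153.0 at ZT14, 236.1 and 227.5 at ZT18, and 86.4 and 122.4 at ZT22. Young libraries held 94.8 and 83.9 at ZT2, 71.9 and 108.3 at ZT6, 105.1 and 146.8 at ZT10, 146.4 and 231.4 at ZT14, 137.3 and 165.3 at ZT18, and 104.7 and 173.5 at ZT22. Levels were highest in the dark part of the day, at ZT18 in old and ZT14 in young, and lowest at ZT6 in old and ZT2 in young. The amplitude was 1.23 ± 0.25 (SE) in old (adjusted p = 0.00791) and 1.05 ± 0.25 in young (adjusted p = 0.0224). The young call was lost without young ZT14 replicate 2 (adjusted p = 0.0810), young ZT6 replicate 1 (0.0650) or young ZT2 replicate 2 (0.0533), and with unscaled TPM (0.136) or quantile normalization (0.0697). Among the profiles most like that of Pklr were those of Tkfc (named Dak in the files), the kinase that passes fructose carbon to glycolysis, and Elovl6, a fatty acid elongase (Pearson r = 0.95 and 0.89 over the 24 libraries).

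Genes that share the element's letters in a start window were looked up with a chromosome left out, so the list may be incomplete. Of those looked up, 3 passed the filter. Pklr varied over the day (limma adjusted p = 0.00474), whereas A430005L14Rik (0.321) and Fam124a (0.352) did not pass the test. Their amplitudes were 0.38 and 0.48 in old and 0.43 and 0.63 in young liver.

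Age over the whole day moved none of the 8 genes past the threshold by limma, against 201 genes, or 1.64%, of all tested (1.14% higher and 0.498% lower in old). At an unadjusted p under 0.05 there were 2, Pkm and Gckr, beside 1428 of all genes. The median log2 difference, old minus young, was 0.07 over the 8 genes and -0.01 over all genes tested, and 5 of the 8 were positive. Gckr averaged 64.1 ± 9.43 scaled TPM in old and 56.5 ± 7.94 in young liver (SD over 12 libraries at 6 times), a log2 difference of 0.18 ± 0.07 (SE, limma adjusted p = 0.257). Differences of the other genes were -0.06 for Slc2a2, -0.12 for Slc2a1, 0.18 for Pfkl, -0.06 for Pfkfb1, 0.06 for Pfkfb3 and 0.08 for Pklr, with SEs of 0.08 to 0.18 and limma adjusted p of 0.787 to 0.956. With unscaled TPM, which moves the median of all genes to 0.09, Slc2a2 and Pfkfb1 turned positive (both 0.05).

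Pkm (chr9:59656368-59679375, plus strand), the pyruvate kinase of muscle, immune and most dividing cells, was the gene in which old and young liver lay farthest apart. In old liver it had 11.1 and 11.5 scaled TPM at ZT2, 13.3 and 17.3 at ZT6, 18.4 and 20.7 at ZT10, 14.4 and 10.8 at ZT14, 11.1 and 9.54 at ZT18, and 10.6 and 13.0 at ZT22. In young liver it had 11.1 and 12.4 at ZT2, 10.5 and 10.9 at ZT6, 9.02 and 7.22 at ZT10, 9.34 and 7.90 at ZT14, 13.4 and 8.90 at ZT18, and 12.9 and 9.89 at ZT22. Old libraries were above young ones without overlap at ZT6, ZT10 and ZT14, and the ages overlapped at ZT2, ZT18 and ZT22. Such separation of 2 against 2 libraries also occurred in Pfkfb1, with old lower at ZT2, ZT10 and ZT14 and higher at ZT18. Separation alone is not evidence of a difference, and its share over all genes was not counted. At ZT10 the old mean of Pkm was 2.34 times the young one as fitted (log2 1.22 ± 0.22 SE, limma adjusted p = 0.0225). This was the only call among the 8 genes at any single time. At ZT10, 0.53% of all genes were called, 0.449% higher and 0.0816% lower in old. At ZT6 the log2 difference was 0.49 (unadjusted p = 0.0387, limma adjusted p = 1.0) and at ZT14 it was 0.51 (unadjusted p = 0.0320, limma adjusted p = 0.579). At the other times none of the 8 genes was called by limma, as was 0.0% of all genes at ZT2 and ZT6, 0.0408% at ZT14, 0.0245% at ZT18 and 0.00816% at ZT22. At an unadjusted p under 0.05 there were Gckr at ZT2 (beside 4.0% of all genes), Pkm at ZT6 (beside 4.04%), and Pkm and Pfkfb1 at ZT14 (beside 7.87%). With 2 libraries per age the ZT10 call rests on each of them: it was lost without old ZT10 replicate 1 (adjusted p = 0.0729), old ZT10 replicate 2 (0.148), young ZT10 replicate 1 (0.0950) or young ZT10 replicate 2 (0.244).

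**Figure D3:**
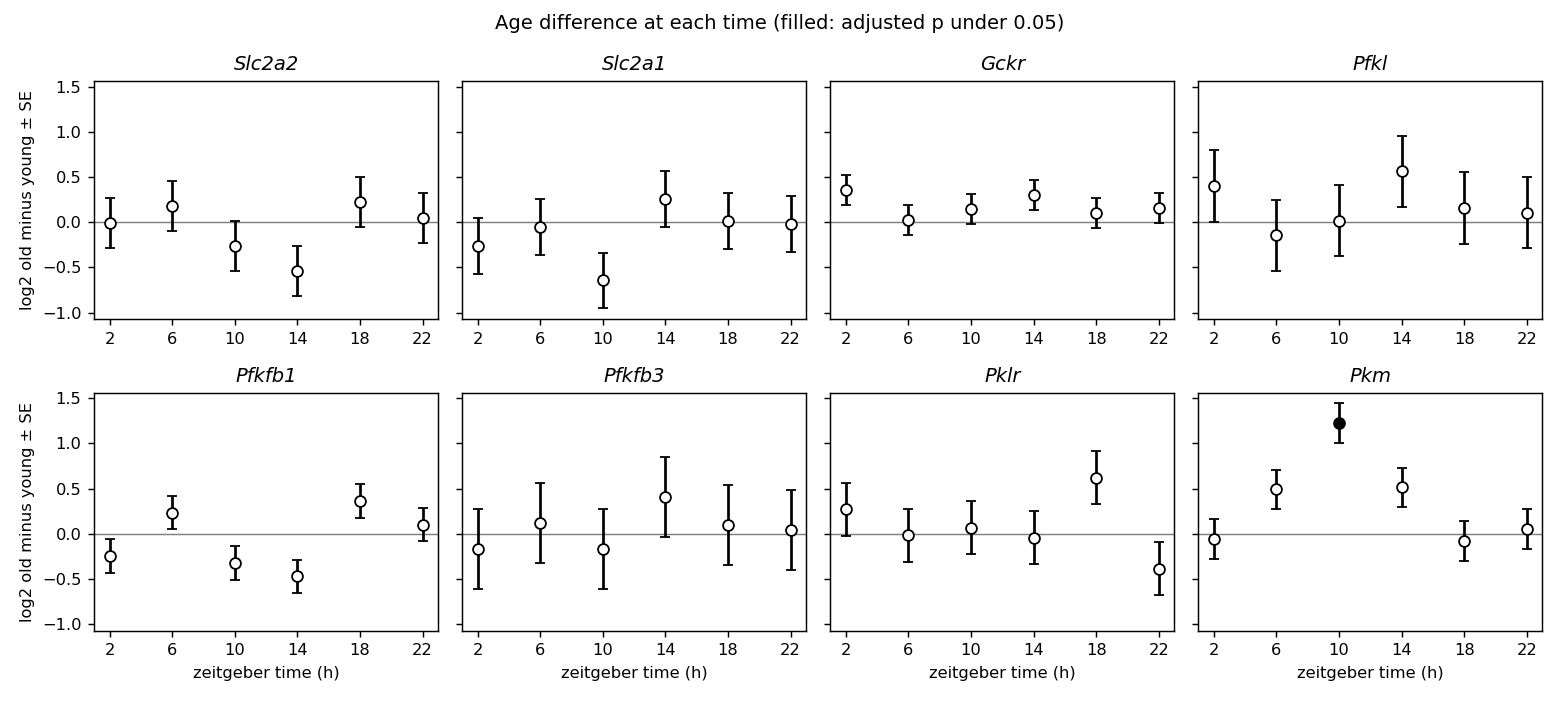
Log2 difference, old minus young, ± SE at each zeitgeber time for the 8 genes, from the fit with 12 age and time groups. The filled point, Pkm at ZT10 with 1.22, is the call at an adjusted p under 0.05, and all open points missed it.

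Over the whole day Pkm averaged 13.5 ± 3.55 scaled TPM in old and 10.3 ± 1.95 in young liver (SD over 12 libraries), a log2 difference of 0.36 ± 0.09 (SE, limma adjusted p = 0.0590), with a higher mean in old at 4 of 6 times. With a replicate block, a term for the replicate number in the fit, the difference passed the threshold (limma adjusted p = 0.0372). It passed the threshold without old ZT14 replicate 2 (limma adjusted p = 0.0405), old ZT6 replicate 1 (0.0475), young ZT18 replicate 1 (0.0218) or young ZT22 replicate 1 (0.0497), and with unscaled TPM (0.0175) or FPKM (0.0183). Without old ZT6 replicate 2, the library with muscle transcripts, the difference was 0.33 (0.125). Without old ZT14 replicate 1 and young ZT18 replicate 2 together it was 0.28 (0.152).

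Pkm also had the smallest p of the 8 genes for a difference in daily course between the ages. A rhythm was called in old liver (amplitude 0.74 ± 0.18 SE, peak at 8.77 ± 0.93 h, limma adjusted p = 0.0297) and missed in young liver (amplitude 0.52 ± 0.18, peak at 23.8 ± 1.33 h, limma adjusted p = 0.1504). The old call was lost without any one of old ZT6 replicate 2, old ZT10 replicates 1 and 2, old ZT18 replicates 1 and 2 or old ZT22 replicate 1 (adjusted p of 0.0501 to 0.119). The test of the difference between the rhythms did not pass for Pkm (unadjusted p = 0.000701, limma adjusted p = 0.573). No gene passed that test by limma (0 of 8 and 0.0% of all), and 1 of the 8, Pkm, and 430 of all genes had an unadjusted p under 0.05. The test that the age difference varied over the times passed in 0 of the 8 genes and in 0.0163% of all by limma, with Pkm (unadjusted p = 0.00507) and Pfkfb1 (0.0327) among 442 genes at an unadjusted p under 0.05.

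Pkm is made by many cells other than hepatocytes, and markers of some of these cells were also higher in both old than in both young libraries at ZT10. The 10 Kupffer cell and macrophage markers summed to 742 and 1087 scaled TPM in old and 416 and 378 scaled TPM in young liver at ZT10. Over all libraries their sum had a range of 375 to 1087 in old and 337 to 502 in young. All 10 were detected, 9 of 10 had a positive log2 difference over the day (median 0.29) and 2, Marco and Mpeg1, passed the test. The 6 neutrophil markers summed to 104 and 135 in old and 3.67 and 4.41 in young liver at ZT10. Their range was 3.07 to 135 in old and 3.67 to 22.8 in young. Of the 3 neutrophil markers tested, 2 were called higher in old over the day, beside 1.14% of all genes tested. The other, Retnlg, passed the filter only through its old libraries (mean 2.43 scaled TPM in old and 0.589 in young). The 6 B and plasma cell markers ranged in sum from 118 to 646 in old and from 12.8 to 60.1 in young, with 3 of the 4 tested higher in old. Their sums at ZT10, 146 and 198 in old and 22.5 and 29.7 in young, lay near the medians of the ages (163 in old and 31.9 in young), and the highest was in old ZT6 replicate 2. The 8 liver endothelial markers summed to 182 and 165 in old and 173 and 172 in young liver at ZT10, with 2 of 8 positive over the day (median -0.06). Other lists were also higher in both old than in both young libraries at ZT10. Stellate markers summed to 197 and 194 in old and 159 and 114 in young liver. Bile duct epithelium markers summed to 74.0 and 52.0 in old and 39.3 and 34.5 in young. T cell markers summed to 3.67 and 7.02 in old and 2.55 and 1.67 in young. Hepatocyte and erythroid sums overlapped between the ages. No marker of endothelial, stellate or T cells was called for age by limma, among the 8, 6 and 1 tested. Of the 2 bile duct markers tested, Sox9 was called higher in old over the day (limma adjusted p = 0.0305). The 3 genes most like Pkm over the 24 libraries were H2-Ab1, Cd74 and H2-Aa, all of antigen presentation on MHC class II (Pearson r = 0.84, 0.84 and 0.83). The part of these cells in the Pkm difference was not tested. The rows of the files are per gene, so the M1 and M2 forms of Pkm, and the liver and red cell forms of Pklr, were not separated.

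The hepatocyte and widespread forms were then set against each other within each library, where scaling between libraries plays no role. Pklr made up 90.2% ± 4.05 of the summed TPM of Pklr and Pkm in old and 91.9% ± 3.24 in young liver (SD, n = 12). Slc2a2 made up 96.5% ± 1.39 of the summed TPM of Slc2a2 and Slc2a1 in old and 96.3% ± 1.54 in young liver. The share of Pfkfb1 in the summed TPM of Pfkfb1 and Pfkfb3 was 75.7% and 50.1% in old and 66.9% and 65.4% in young liver at ZT10, against 96.9% and 93.3% in old and 94.7% and 94.5% in young liver at ZT18. None of the 3 log2 ratios (of TPM plus 0.5) differed between ages past the threshold by an exact permutation test that exchanged ages within each time (two-sided), adjusted over the 3. The difference, old minus young, was -0.27 for Pklr over Pkm (exact p = 0.212, adjusted p = 0.636, lower in old at 4 of 6 times). It was 0.07 for Slc2a2 over Slc2a1 (exact p = 0.665, adjusted p = 0.665) and -0.10 for Pfkfb1 over Pfkfb3 (exact p = 0.574, adjusted p = 0.665).

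**Figure D4:**
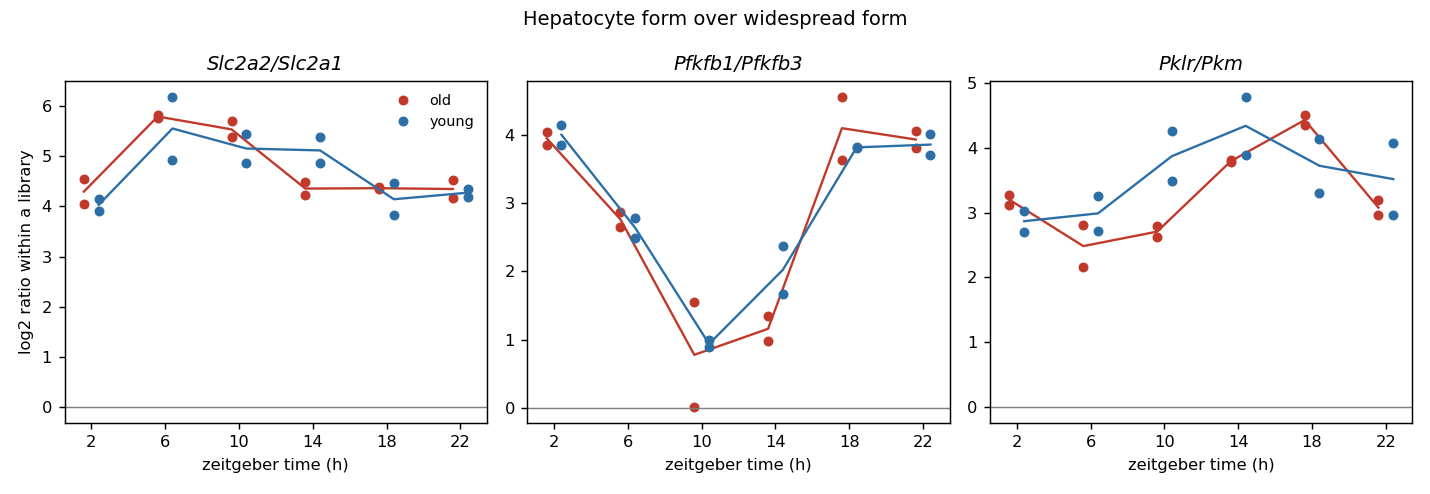
Log2 ratio within a library of the hepatocyte form over the widespread form (vertical axes) against zeitgeber time in hours, with old in red and young in blue. Points are single libraries and lines join means of 2. The mean log2 ratio of Pfkfb1 to Pfkfb3 was lowest at ZT10, at 0.78 in old and 0.94 in young liver.

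The rest of the pathway was read from 6 lists with 72 genes, of which 55 passed the filter. None of the 55 was past the threshold for age by limma, and 31 had a positive difference. Of the 55, 18 varied over the times, beside 15.3% of all genes, and the counts of single lists are to be read against that share. A rhythm was called in 11 in old (beside 8.96% of all genes) and 15 in young liver (beside 10.7%), and in 8 in both (beside 5.46%). The genes nearest to an age difference in their lists were Pdhx, a component of pyruvate dehydrogenase, at 17.5 ± 2.65 scaled TPM in old and 20.9 ± 3.53 in young liver (log2 -0.25, limma adjusted p = 0.0558), and Hk1, the hexokinase of most tissues, at 1.60 ± 1.04 in old and 0.776 ± 0.353 in young (log2 0.61, 0.124). Hk1 passed the filter only through its old libraries, so its test cannot decide on an age difference and its values are a description. In the other lists they were Slc2a9, a urate transporter (log2 0.24, limma adjusted p = 0.267), Ldhb, a lactate dehydrogenase subunit (0.48, 0.209), Khk, which phosphorylates fructose (0.28, 0.463), and Hif1a, a regulator of glycolytic genes (0.20, 0.365). Pdhx passed with no filter (0.0389), without old ZT14 replicate 1 (0.0294) and without old ZT14 replicate 1 and young ZT18 replicate 2 together (0.0371). The log2 difference of Hk1 was 0.72 without old ZT10 replicate 1, again as a description. That of Ldhb was 0.63 without old ZT6 replicate 1.

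Of the other transporters tested, 2 of 3 varied over the times, Slc2a5, a fructose transporter (limma adjusted p = 0.00223), and Slc2a9 (0.0201). Slc2a5 had an amplitude of 2.98 with a peak at 9.58 h in old, and of 2.42 with a peak at 10.1 h in young liver. Of the other hexokinase and phosphofructokinase genes 3 of 7 varied, among them Tigar, a fructose bisphosphatase that lowers fructose 2,6-bisphosphate (limma adjusted p = 0.0222), and Pfkm, the muscle subunit of phosphofructokinase (0.0393). Of the other glycolytic enzymes 3 of 12 varied, among them the phosphoglycerate kinase Pgk1 (0.0190) and Aldoa, the aldolase of muscle (0.0240). Gapdh has many near-identical copies in the mouse genome, so its level is uncertain.

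In the branch from pyruvate and lactate 4 of 13 genes varied. Pdk4, the kinase that shuts pyruvate dehydrogenase during fasting (limma adjusted p = 5.79e-05), had an amplitude of 3.22 with a peak at 22.4 h in old, and of 2.92 with a peak at 22.8 h in young liver. Slc16a1, a lactate transporter (0.00306), peaked at 22.3 h in old and 22.7 h in young. The others were Pdhx (0.0171) and Pdhb (0.0388), both of pyruvate dehydrogenase. In fructose entry 3 of 5 varied, Tkfc (limma adjusted p = 0.000952), Glyctk, a glycerate kinase (0.00202), and Sord, sorbitol dehydrogenase (0.00590). Tkfc peaked at 15.1 h in old and 15.2 h in young. Of the carbohydrate-sensing regulators and their targets 3 of 15 varied, Thrsp, a lipogenic gene (limma adjusted p = 2.17e-05), Txnip, which curbs glucose uptake (0.00459), and Hnf4a, a master regulator of hepatocytes (0.0119). Thrsp had an amplitude of 3.03 with a peak at 16.5 h in old, and of 3.36 with a peak at 17.1 h in young liver. The variation over times was lost in 16 of 24 fits that left out 1 library for Pfkm and for Pdhb, in 5 for Aldoa, in 4 for Tigar, and in 2 each for Slc2a9, Pgk1 and Pdhx. With unscaled TPM it was lost for Slc16a1 (adjusted p = 0.145), Pgk1 (0.132), Pfkm (0.119), Tigar (0.0743) and Sord (0.0510), and with quantile normalization for Sord (0.0910) and Hnf4a (0.0513). With no filter it was lost for Pfkm (0.0632) and Pdhb (0.0534), and with no intensity trend for Pdhb (0.0525). Without old ZT14 replicate 1 and young ZT18 replicate 2 together it was lost for Pdhx (0.0919), Tigar (0.0787) and Pfkm (0.0618).

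Of the remaining genes of the group, the profiles most like that of Slc2a2 over the 24 libraries were those of Klhl21, Tob2 and Dcun1d4 (Pearson r = 0.86, 0.86 and 0.85). Those most like Gckr were Klhdc7a, Adssl1 and Smoc1 (0.84, 0.82 and 0.80), and those most like Pfkfb1 were Ddo, Slc17a3 and Akr1d1 (0.88 each). For Pfkl they were Agt, Fbxo38 and Mthfd1 (0.83, 0.80 and 0.80), and for Slc2a1 they were Opa1, Syvn1 and Osbp (0.72, 0.71 and 0.70). The 24 libraries share times and ages, so these values describe likeness of course and nothing more. Within the group the highest correlation was that of Slc2a2 with Pfkfb3 (r = 0.60) and the lowest that of Gckr with Pfkfb1 (r = -0.66).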

How the data were processed

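The submitters' processing notes name HISAT2, StringTie and the build GRCm38, with no versions. The labels' protocols give poly(A) selection of RNA from frozen tissue and stranded single-end libraries of 50 bases. The deposited TPM sum to 1000000 in each library, the deposited FPKM are scaled for depth and length, and the deposited coverage is the mean read coverage per base. Coverage over FPKM gave the mapped gigabases. The files hold no read counts, so single values have no counting error here.

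Entries of one gene identifier were summed. TPM were divided by median-of-ratios factors (0.817 to 1.23) over the 13270 genes above 0 in every library. After a filter at a mean of 1 TPM, limma 3.58.1 (R 4.3.3, empirical Bayes, intensity trend) was run on log2 of scaled TPM plus 0.5, a scale that understates fold changes of low genes. Age differences and variation over times came from cell means of the 12 groups, with 12 residual degrees of freedom. Rhythms and their difference came from a cosine and a sine of 24 h in each age, with 18. A call is an adjusted p under 0.05 (Benjamini-Hochberg, 12261 genes). For the ratios all 46656 exchanges of ages within times were enumerated. Python 3.11.15, pandas 2.3.3, numpy 2.4.6, scipy 1.17.1 and matplotlib 3.10.9 were used. The fits for age over the day and for a rhythm in young were tested on simulated data with independent noise. The other steps were not tested in this way.

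The genes, lists and tests were chosen with earlier results of these data known. The 8 genes are all named. Of each other list the gene with the smallest p for age and up to 4 past the threshold over times were named, and 2 genes are not reported here. Of 160 list entries 156 matched by name and 4 by another symbol. Similar genes were the 3 with the highest correlation among genes averaging 5 TPM or more, with predicted genes and clone names left out. Motifs were searched in RefSeq windows. Alternatives were unscaled TPM and FPKM, quantile normalization, pseudocounts of 0.1 and 1, no filter, a filter at 5 TPM, no intensity trend, a replicate block, and libraries left out singly or 2 together.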

Additional observations from a re-analysis of the deposited data

How the results depend on the processing

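The 4 calls of variation over times (Slc2a2, Pfkfb1, Pfkfb3 and Pklr) held under every alternative that kept the gene, while a filter at 5 TPM removed Pfkfb3 and Slc2a1. With Gckr and Slc2a1, which missed the threshold narrowly, the number called was 4 to 6 under the alternatives and with single libraries left out. Unscaled TPM and FPKM moved the median of all genes by age to 0.09 and 0.05 on the log2 scale and the share of higher calls from 69.7% to 85.6% and 81.9%, and each brought 1 of the 8 genes, Pkm, past the threshold for age. The filter at 5 TPM left 116 genes called for age, 58.6% of them higher. Slc2a2 turned to 0.0513 with TPM, 0.00933 with FPKM and 0.00831 without young ZT18 replicate 2 and old ZT14 replicate 1 together, and Pfkfb1 to 0.0508 with TPM and 0.00983 with FPKM. Rhythms in young were called in 3 of the 8 genes with unscaled TPM, and the Gckr call was also lost with no intensity trend (adjusted p = 0.0550). The cause of these moves was not tested.

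Among all genes tested, the age difference varied over times in 0 genes with the 5 TPM filter, 17 with no filter, and 1 with a pseudocount of 0.1 and with quantile normalization, beside 2. Rhythm differences were called in 1 gene with the 5 TPM filter, 2 with quantile normalization and 4 without the 2 libraries together, beside 0. Age differences at single times numbered 113 with no filter, beside 74.

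Leaving out each library in turn gave 0 to 1 of the 8 genes for age over the day, 0 to 1 for age at single times, 3 to 5 for rhythms in young and 3 to 5 for rhythms in old. Among all genes it gave 0 to 36 for the varying age difference, 0 to 3 for rhythm differences and 15 to 118 for age at single times. Log2 values that changed sign ranged from -0.117 to 0.00156 for Pfkfb1 by age, from -0.0816 to 0.194 for Pfkfb3, from -0.0362 to 0.176 for the ratio of Slc2a2 to Slc2a1 and from -0.227 to 0.0289 for that of Pfkfb1 to Pfkfb3, all far from the threshold.

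Replicate numbers were shared across groups. Deviations of same-numbered libraries correlated at -0.16 to 0.45, with a median of 0.19, and over 0.1 in 52 of 66 pairs of groups. Same-numbered libraries thus tended to deviate together, and the source of this was not tested. The labels do not say what the numbers mean. The main fits left them out, and a replicate block was run as an alternative. With a replicate block, 1 of the 8 genes (Pkm, adjusted p = 0.0372) was called for age, beside 353 of all genes, and Pdhx of the other lists passed for age as well (0.0324). Gckr (0.0334) and Slc2a1 (0.0391) passed for variation over times, and all genes called numbered 2905 for variation over times and 156 for age at single times. A depth of 0.435 to 0.683 gigabases limits the precision of the lowest levels, those of Pfkfb3 and Slc2a1.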
